A study of Mus musculus with 24 samples.

Results

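The effect of transverse aortic constriction (TAC) on the left ventricle of the mouse was measured by RNA sequencing and averaged over 4 times. TAC is an operation that narrows the aortic arch, so that the left ventricle pumps against a raised pressure, and a sham operation is the same surgery without the narrowing. All 24 libraries of the series entered: 3 after TAC and 3 after sham at each of days 2, 4, 7 and 21. TAC was compared with sham of the same day, and the 4 daily differences were averaged with equal weight for every gene with enough reads, 13816 of the 24015 genes in the count table. By their labels the groups differ by operation and day alone. The labels name no strain, sex, age or genotype, nor do they say whether the 3 libraries of a group came from 3 animals, so that p-values measure the spread between these libraries.

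A heart under raised pressure enlarges its muscle cells. Genes of the fetal heart, such as natriuretic peptides and beta myosin, are switched on again, fibroblasts and other non-muscle cells divide and lay down matrix, and the use of fatty acids as fuel declines. The adult ventricle draws most of its energy from mitochondrial oxidation of fatty acids, and its contraction depends on calcium released from and returned to the sarcoplasmic reticulum.

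Sequencing depth was 10.7 to 17.6 M reads assigned to genes per library (M, 1000000 reads). Levels are given as CPM, counts per 1000000 reads after scaling by TMM, and effects as the log2 of the TAC to sham ratio ± SE. The ventricular label was checked with Myl7, the light chain of atrial myosin. It was over 30 CPM in 3 sham libraries and 1 TAC library, while Myh6, the main myosin of the adult ventricle, was at 43800 to 57470 CPM in the sham libraries. The part of atrial tissue in the results was not tested beyond values without these 4 libraries. In bulk tissue a lower level in each muscle cell and a smaller share of muscle cells cannot be told apart.

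On average over the 4 days, 6319 genes passed the test (45.7% of those tested; Benjamini-Hochberg adjusted p under 0.05, edgeR quasi-likelihood). Of these, 3367 rose (24.4%) and 2952 fell (21.4%). Higher genes were thus 53.3% of the calls. When libraries were scaled by their totals alone, 4130 genes rose and 2094 fell, and higher genes were 66.4% of the calls. The same model called 633 genes at day 2 (4.58%), 3394 at day 4 (24.6%), 3201 at day 7 (23.2%) and 151 at day 21 (1.09%). The average has a smaller error: its median SE over genes was 0.079, against 0.156 at day 2 and 0.158 at day 21.

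Rises and falls were of unlike size. Of the genes that rose, 204 had an average log2 fold change of 2 or more, 530 one of 1 to 2, and 1746 one under 0.5. Of the genes that fell, 1 was past 2, 59 lay between 1 and 2, and 2436 were under 0.5. Changes under 0.5, less than 1.41-fold, thus made up 66.2% of all calls. Called genes with the smaller changes were also the more abundant ones. The median level was 5.48 log2 CPM for called genes under 0.25, and 1.13 log2 CPM for those of 2 or more. A small change passes the test more readily in an abundant gene, so nothing is read from this relation.

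**Figure D1:**
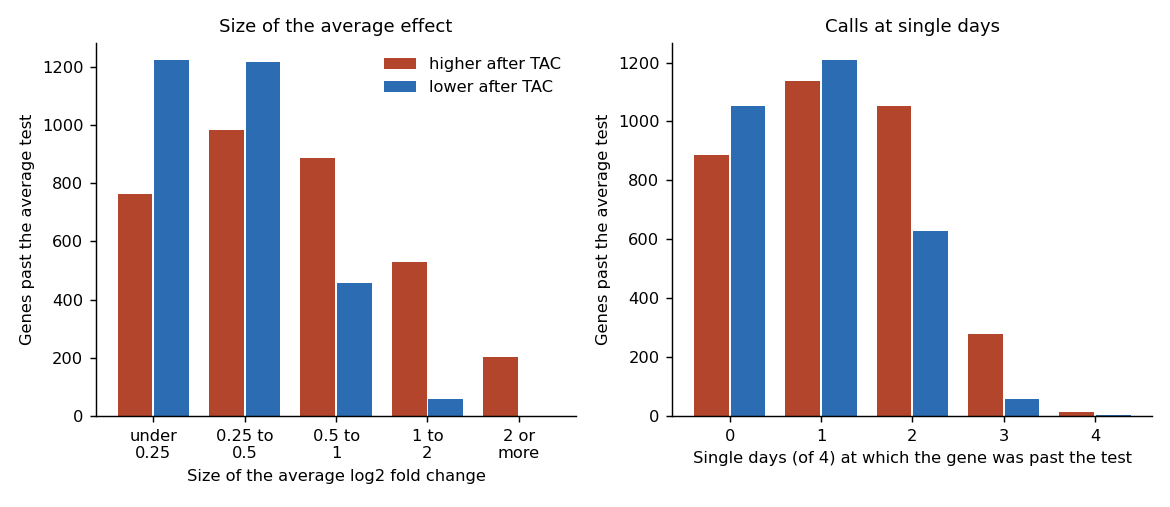
Genes past the average test by size of the average log2 fold change (left) and by the number of single days at which they were also past the test (right), with genes higher after TAC in red and lower in blue. Rises outnumber falls in every class from 0.5 up, falls outnumber rises in both classes under 0.5 (with TMM scaling; on library totals alone small changes of one direction were 1688 higher and 1425 lower), and 1939 genes were called at no single day.

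In most called genes the 4 days pointed the same way. Among called genes, 5246 (83.0%) had the same sign at all 4 days. The share was 48.1% of all genes tested, the called ones included. Genes were called on the mean of these same 4 effects, which favours 1 sign, so nothing is read from the gap. Of the 1073 called genes with unlike signs, 445 were opposite at day 2, 459 at day 21, 131 at day 7 and 68 at day 4, a gene counting at each such day. Across all 13816 genes the daily effects correlated with r = 0.82 between days 4 and 7 and with r = 0.52 between days 2 and 21. Each day has its own libraries. The correlations are over genes, which are not independent replicates, and serve as a description. In 423 genes the 3 TAC libraries lay beyond the 3 sham libraries without overlap at every day, 238 of them higher (1.72%) and 185 lower (1.34%).

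The genes with the largest rises among those without overlap were muscle stress genes and genes of dividing cells. Nppa, which encodes atrial natriuretic peptide, was at 113 to 307 CPM in the 12 sham libraries (median 170) and at 678 to 3409 after TAC (median 1676). The ranges did not overlap. Its average log2 fold change was 3.26 ± 0.25 (adjusted p = 1.03e-07), and its daily values lay between 2.56 at day 2 and 3.58 at day 21. Acta1, skeletal alpha actin, went from 115 to 482 CPM (median 245) in sham to 640 to 3361 (median 1784), an effect of 2.73 ± 0.22. Nppb, brain natriuretic peptide, rose by 1.81 ± 0.18, and Ankrd1, a stress-responsive protein of the muscle Z-disc and nucleus, by 1.59 ± 0.16. Myh7, beta myosin, rose by 3.0 ± 0.35. Its sham libraries spread widely, from 56.9 to 854 CPM, and overlapped with the TAC libraries at 720 to 5786. All 18 hypertrophic marker genes rose, with a median of 1.19.

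Genes of the cell cycle rose by similar factors, with the lowest median at day 21. Of 76 tested, 67 rose and 2 fell, with a median of 1.60, compared with -0.0025 over all genes tested. The medians were 1.53, 1.83, 2.38 and 0.45 at days 2, 4, 7 and 21. Mki67, a marker of proliferating cells, was at 15.3 to 60.2 CPM (median 29.7) in sham and at 36.2 to 437 (median 154) after TAC. The highest sham libraries were above the lowest TAC library over all days, but not within a day. The average effect was 2.37 ± 0.21, with 1.08 at day 21. Top2a, which untangles DNA, rose by 2.70 ± 0.24. Prc1 and Anln, needed for cytokinesis, rose by 2.60 ± 0.23 and 2.49 ± 0.23. Ccna2, cyclin A2, rose by 2.58 ± 0.23, Foxm1, a transcription factor of mitotic genes, by 2.52 ± 0.23, and the spindle gene Aspm by 2.40 ± 0.24. The histone gene Hist1h2ak rose by 2.19 ± 0.20. The list's 2 members that fell encode inhibitors of the cycle: Cdkn1c, p57, by -0.71 ± 0.11 and Cdkn1b, p27, by -0.18 ± 0.06. The Cdkn1b call was lost in 6 of 40 alternative settings.

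Many S phase genes carry a site for E2F factors in the promoter, and 2 such promoters are shown because both genes rose and hold the motif. RefSeq promoters (GRCm38.p6, 250 bases before to 50 after the gene start) were searched on both strands for TTTCCCGC or TTTGGCGC. Of 62 cell cycle genes with a promoter, 12 held it (19.4%), compared with 1.8% of all 27025 genes, 3.33% of the genes tested and 4.41% of those that rose. The match is in capitals, and each stretch lies upstream of the start and reads 5′ to 3′ on the gene's strand.
Cdc6: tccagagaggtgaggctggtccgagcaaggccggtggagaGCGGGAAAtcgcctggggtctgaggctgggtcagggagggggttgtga
Mcm6: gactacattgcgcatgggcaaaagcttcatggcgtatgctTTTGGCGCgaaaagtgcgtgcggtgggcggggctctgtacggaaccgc
Cdc6, which loads the helicase onto replication origins, holds the motif on the opposite strand (chr11:98907973-98908060, plus strand). It rose by 1.98 ± 0.31 and was the rarer of the pair, at 0.0879 to 0.645 CPM in sham and 0.611 to 3.67 after TAC. Mcm6, a subunit of that helicase, holds it on its own strand (chr1:128359768-128359855, minus strand) and rose by 1.15 ± 0.18.

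Matrix and fibroblast genes formed the other large rise. Of 68 matrix genes 59 rose and 1 fell, with a median of 1.2. Replicate 1 of TAC at day 2 and replicate 2 of TAC at day 21 stood apart from the other TAC libraries. Col1a1 was at 180 and 194 CPM there, within the 131 to 229 CPM of the sham libraries, and Col3a1 at 260 and 253, within 185 to 290. Without the first 60 matrix genes rose, and without the second 61. Tnc, tenascin C, rose by 4.36 ± 0.45, from 2.02 to 8.46 CPM (median 3.41) to 2.70 to 491 (median 59.2). The wide TAC range came with days: the effect was 6.59 at day 4 and 2.29 at day 21. Postn, periostin, went from 41.0 to 82.7 CPM (median 60.8) to 67.2 to 1951 (median 431), an effect of 3.11 ± 0.32. Timp1, an inhibitor of matrix proteases, rose by 3.74 ± 0.46, Ctgf, a matricellular growth factor, by 1.94 ± 0.24, and the fibrillar collagens Col1a1 and Col3a1 by 2.15 ± 0.27 and 1.97 ± 0.24. The basement membrane collagens Col4a1 and Col4a2 rose less, by 0.85 ± 0.09 and 0.76 ± 0.07, with smaller errors. Mfap5, a microfibril protein, was at 13.6 to 19.4 CPM (median 17.5) in sham and 19.9 to 139 (median 73.1) after TAC, with no overlap at any day and an effect of 2.07 ± 0.23. The member that fell was Lamb2, laminin beta 2, by -0.16 ± 0.06, a call lost in 11 of 40 settings.

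All 16 markers of activated fibroblasts rose, with a median of 1.84. Their summed level was 273 to 404 CPM in the sham libraries and 351 to 3583 after TAC. Lox, which crosslinks collagen, rose by 3.30 ± 0.42, and Meox1, a transcription factor of activated fibroblasts, by 1.73 ± 0.19. Of 18 markers of resident fibroblasts, 8 rose and 6 fell (3 without day 7). These were 44.4% and 33.3%, against 24.4% and 21.4% of all genes. Cd34 rose by 0.56 ± 0.05 and Col15a1 by 1.16 ± 0.15. Gsn, gelsolin, fell by 0.57 ± 0.08 on the log2 scale. Hsd11b1, Scara5, Dpep1, Mgst1 and Gstm5 also fell, by -0.70 ± 0.16, -0.78 ± 0.23, -0.49 ± 0.12, -0.45 ± 0.11 and -0.31 ± 0.09. Of the TGF-beta, activin and BMP pathway, 20 of 38 genes rose (52.6%) and 6 fell (15.8%). The follistatin-like secreted proteins Fstl1 and Fstl3 rose by 1.81 ± 0.19 and 1.65 ± 0.23, and the ligand Tgfb1 by 0.49 ± 0.07. Of the members that fell 3 were receptors: Tgfbr3 (-0.33 ± 0.06), Acvr2b (-0.49 ± 0.12) and Acvr2a (-0.21 ± 0.06). Beside these, the ligand Bmp6 (-0.44 ± 0.09), the signal transducer Smad4 (-0.18 ± 0.04) and the latent binding protein Ltbp1 (-0.25 ± 0.06) fell.

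Markers of macrophages and monocytes rose in 26 of 30 cases, with a median of 0.93 and none lower. Their summed level was 516 to 835 CPM in sham and 612 to 1696 after TAC. Cd68, a lysosomal protein of macrophages, rose by 1.12 ± 0.13, the complement gene C1qb by 0.91 ± 0.10 and Csf1r, the receptor for colony stimulating factor 1, by 0.54 ± 0.07. Marker levels in bulk tissue cannot tell more macrophages or fibroblasts from a higher level in each cell. The part of these cells in the gene lists that follow was not tested. Neutrophil and lymphocyte markers were scarce, at a sum of at most 67.7 and 10.8 CPM in any TAC library. Of these, Csf3r (0.94 ± 0.28), Lcn2 (1.06 ± 0.18), Il7r (1.4 ± 0.46) and Cd4 (0.61 ± 0.21) rose.

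**Figure D2:**
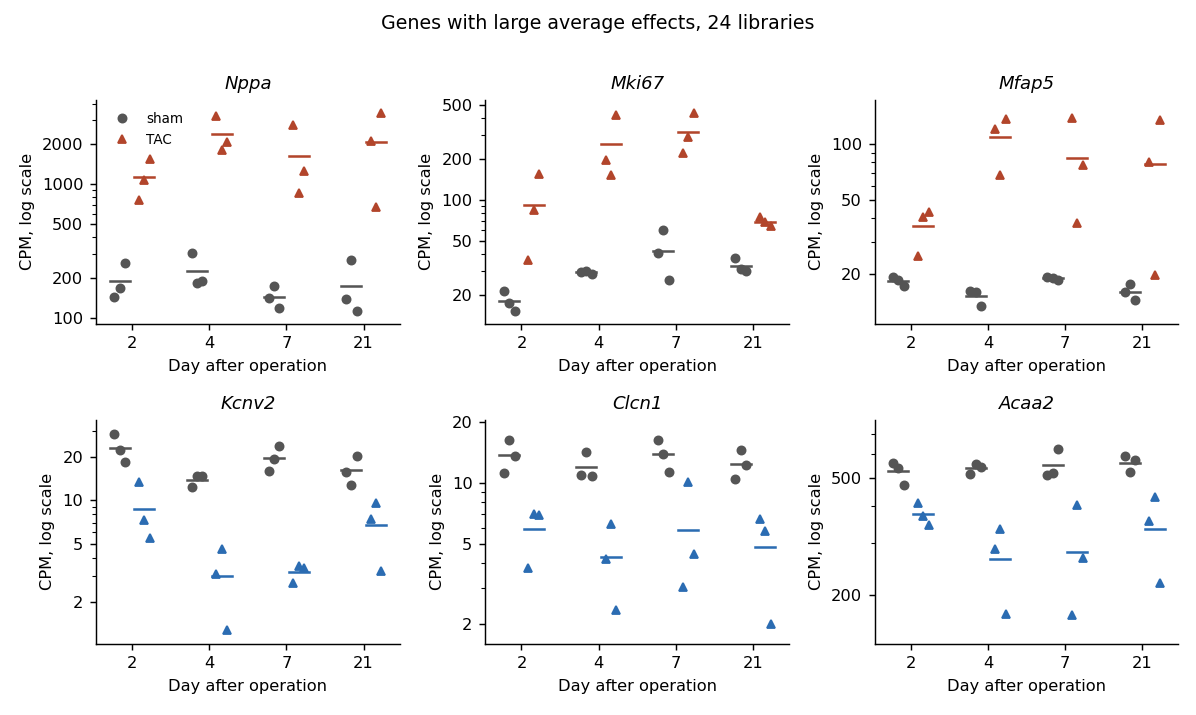
Levels in CPM on log axes of 6 genes with large average effects, by day after the operation. Grey circles are the 3 sham libraries of a day, triangles the 3 TAC libraries (red, higher, and blue, lower), and lines their means. The 6 genes were taken from those without overlap of TAC and sham at any day, so nothing is read from the lack of overlap.

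Large falls were few. Named here are the 10 largest among called genes of at least 3 log2 CPM without overlap within any day. That lack of overlap was thus a condition of the choice, and genes outside it are not ranked here. Of the 10 only Kcnv2 and Clcn1 fell by more than 1, and 3 were ion channel genes. Kcnv2, a modifying subunit of potassium channels, was at 12.4 to 28.6 CPM (median 17.0) in sham and at 1.28 to 13.4 (median 4.06) after TAC. It did not overlap within any day and fell by -1.89 ± 0.18 (adjusted p = 4.74e-07). Clcn1, a chloride channel best known from skeletal muscle, went from 10.4 to 16.4 CPM (median 12.9) to 1.99 to 10.1 (median 5.09), with ranges that did not meet. Its effect of -1.34 ± 0.20 stayed between -1.20 and -1.51 over the 4 days. Scn4a, the sodium channel of skeletal muscle, fell by -0.77 ± 0.16. Asb15 and Asb14, muscle proteins with a SOCS box that link targets to ubiquitin ligases, fell by -0.90 ± 0.11 and -0.83 ± 0.12. Asb15 was the more abundant, at 200 to 261 CPM in sham and 74.5 to 237 after TAC.

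The other genes of this group were Abca12, a lipid transporter (-0.98 ± 0.11), Armc2 (-0.92 ± 0.12), Stard10, a lipid transfer protein (-0.80 ± 0.12), and Selenbp1, a selenium-binding oxidase (-0.77 ± 0.12). Acaa2, the thiolase of mitochondrial fatty acid oxidation, was at 472 to 626 CPM (median 541) in sham and 171 to 429 (median 340) after TAC, an effect of -0.81 ± 0.12 with no overlap between the ranges.

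Small changes made up most of the shared response. A small consistent change is here a called gene with an average log2 fold change under 0.5 in size and the same sign at each of the 4 days. There were 3298 such genes, 1266 higher (9.16% of genes tested) and 2032 lower (14.7%). This split turned with the scaling: on library totals alone 1688 were higher and 1425 lower. Their median size was 0.27 and their median SE 0.066. At a single day their median SE was 0.130 to 0.132. The median rise was 22.5% and the median fall 16.6%. The daily medians of the higher genes were 0.22, 0.35, 0.32 and 0.20 at days 2, 4, 7 and 21, and those of the lower genes -0.19, -0.32, -0.31 and -0.18. For a typical gene, 11 of the 12 TAC libraries lay on the same side of the sham mean of their day. All 12 did in 226 of the higher and 513 of the lower genes. Over all genes tested the number was 1421 (10.3%). The small genes were chosen for passing the test with 1 sign at every day, so nothing is read from their count. Of the 423 genes without overlap at any day, 171 had a small change.

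The small rises with the lowest p-values included signalling, cytoskeletal and matrix genes. Stat3, the transcription factor of interleukin-6 type cytokines, was at 102 to 140 CPM (median 121) in sham and at 147 to 208 (median 169) after TAC. The ranges did not overlap, and the effect was 0.49 ± 0.05 (adjusted p = 6.78e-07). Gnai2, an inhibitory G protein subunit, went from 246 to 328 CPM (median 266) to 286 to 396 (median 343). Its ranges overlapped over the whole set but at no single day, and its effect was 0.36 ± 0.04. Sptan1, alpha spectrin of the membrane skeleton, had the smallest rise of the group: 427 to 508 CPM (median 478) in sham and 505 to 628 (median 591) after TAC. The ranges overlapped slightly over the whole set but at no single day. The effect of 0.28 ± 0.03 was 0.13 at day 2 and 0.36 at day 21.

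Pdlim1, an actin-associated LIM protein, was at 105 to 127 CPM (median 117) in sham and at 144 to 225 (median 164) after TAC, and rose by 0.50 ± 0.05. It was called at each of the 4 days. Des, desmin of the muscle's intermediate filaments, rose by 0.49 ± 0.06 at a high level, 1475 to 1796 CPM in sham and 1877 to 2974 after TAC. Lamc1, laminin gamma 1, rose by 0.41 ± 0.05, with 0.06 at day 2 and 0.61 at day 7. Adamtsl5, a microfibril-associated protein, rose by 0.46 ± 0.06, Gpx1, a glutathione peroxidase, by 0.49 ± 0.06, Fuca2, a fucosidase, by 0.48 ± 0.06 and Pml, the scaffold of nuclear bodies, by 0.40 ± 0.05. Shisa5 and Plekho1 rose by 0.48 ± 0.06 and 0.50 ± 0.06. Within day 2 the TAC and sham libraries of Lamc1, Fuca2, Pml and Shisa5 overlapped.

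The small falls with the lowest p-values included receptors, kinases, transcription factors and mitochondrial enzymes. Nsmaf, an adaptor of neutral sphingomyelinase, was at 46.9 to 58.6 CPM (median 53.6) in sham and at 32.6 to 45.2 (median 38.7) after TAC. The ranges did not overlap, and the effect was -0.46 ± 0.04 (adjusted p = 2.76e-07). Map3k5, the stress kinase ASK1, went from 71.6 to 88.9 CPM (median 81.1) to 48.5 to 69.5 (median 63.3), again without overlap. It fell by -0.40 ± 0.04 and was called at every day. Ghr, the growth hormone receptor, went from 252 to 314 CPM (median 287) to 180 to 272 (median 195), overlapping over the whole set but at no single day. Its effect was -0.30, -0.40, -0.54 and -0.58 at the 4 days, -0.45 ± 0.05 on average, and its effects did not pass the test of a difference among days (adjusted p = 0.54).

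Thrb, a thyroid hormone receptor, was at 38.6 to 50.1 CPM (median 42.5) in sham and at 24.3 to 42.3 (median 32.4) after TAC, a fall of -0.44 ± 0.05 without overlap within any day. The transcription factors Sox6 and Meis2 both fell by -0.36 ± 0.04. Meis2 is 1 of 2 small consistent genes that also passed the test of a difference among days: its effect was -0.03 at day 2 and -0.68 at day 7. Klhl24, an adaptor of a ubiquitin ligase, fell by -0.45 ± 0.05, from 387 to 490 CPM (median 439) to 254 to 401 (median 309). The mitochondrial enzymes Acadsb and Pcca, which act in the breakdown of branched-chain amino acids, fell by -0.39 ± 0.04 and -0.48 ± 0.06. Cox7c, a subunit of cytochrome c oxidase, fell by -0.40 ± 0.05, Dip2c by -0.39 ± 0.04 and Isoc1 by -0.48 ± 0.06. Within day 2 the TAC and sham libraries of Sox6, Meis2 and Cox7c overlapped.

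**Figure D3:**
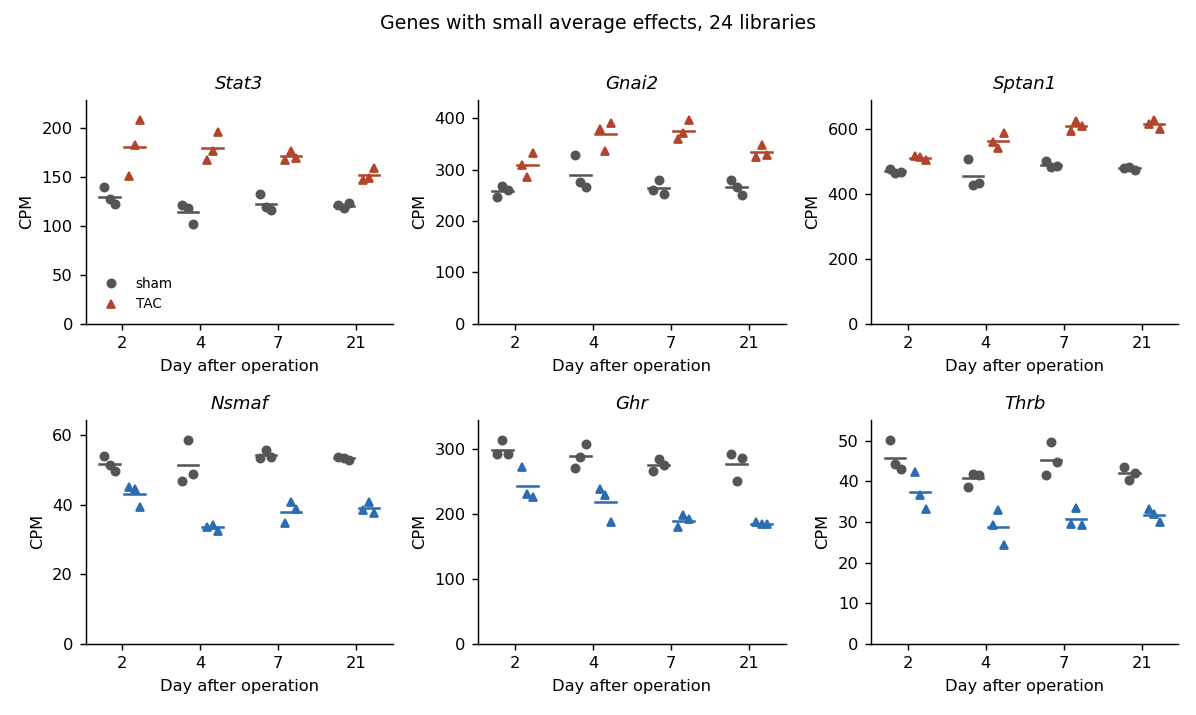
Levels in CPM of 3 genes with a small rise (top, red triangles after TAC) and 3 with a small fall (bottom, blue triangles), with the 3 libraries of each operation and day, sham as grey circles, and lines at the means. Within each day TAC and sham do not overlap in any of the 6 genes, although the average effects are only 0.28 to 0.49 in size. The 6 genes were picked for display and are not typical: of the 3298 small consistent genes, 171 had no overlap at any day.

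A further 1939 called genes, 30.7% of all calls, passed the test at no single day. Of these, 885 rose and 1054 fell, 1645 had the same sign at all 4 days, and the median size was 0.24. Tmed9, a cargo protein of vesicles between the endoplasmic reticulum (ER) and Golgi, is an example of an even effect: 0.24, 0.25, 0.26 and 0.28 at days 2, 4, 7 and 21. It was at 54.2 to 66.3 CPM (median 62.9) in sham and 63.9 to 89.3 (median 73.8) after TAC, and rose by 0.26 ± 0.05 (adjusted p = 0.00033). Acp6, a phosphatase of lysophosphatidic acid, fell as evenly, by -0.41, -0.37, -0.37 and -0.40 at the 4 days and -0.39 ± 0.08 on average. All 12 of its TAC libraries lay below the sham mean of their day.

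Rangap1, which activates the GTPase of the nuclear transport factor Ran, rose by 0.47 ± 0.09, and Nup50, a nuclear pore protein, by 0.25 ± 0.05. Ttll12, Rexo2 and Trim41 rose by 0.47 ± 0.10, 0.28 ± 0.06 and 0.20 ± 0.04. For each of these 5 genes all 12 TAC libraries lay above the sham mean of their day. Among the falls were Osbpl6, an oxysterol-binding protein (-0.47 ± 0.08), Fbxo21, an F-box protein (-0.37 ± 0.07), and Itgb6, integrin beta 6 (-0.52 ± 0.10). Myh6, alpha myosin, belongs here too. It fell by -0.39 ± 0.10 (adjusted p = 0.0037), with 24250 to 51120 CPM after TAC, and the ranges overlapped. On the authors' RPKM table its value was 0.76 (limma, adjusted p = 0.61).

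**Figure D4:**
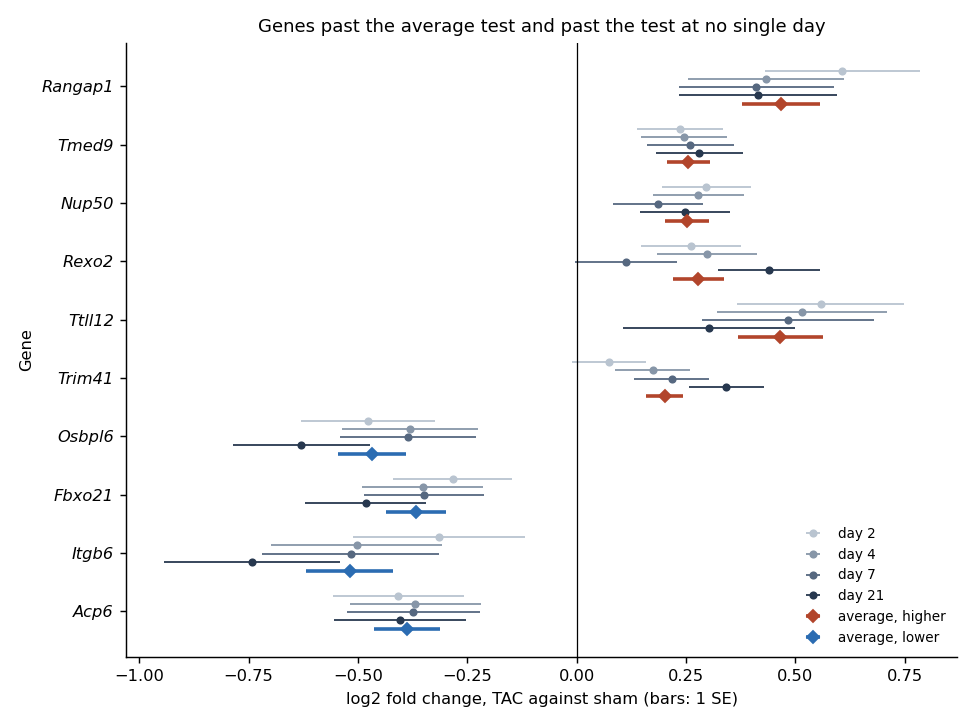
Log2 fold change of TAC over sham at each day (circles, light to dark from day 2 to day 21) and on average (diamonds; red, higher; blue, lower) for 10 genes past the average test and past the test at no single day; bars are 1 SE. The 4 daily values of a gene lie on one side of 0, and the bar of the average is shorter than those of the days.

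At the other end, 16 genes passed the test at every day, 13 higher and 3 lower, and 15 of them had no overlap at any day. Beside Nppa, Nppb, Acta1, Ankrd1, Pdlim1 and Map3k5 these included Nmrk2, a kinase of the NAD precursor nicotinamide riboside, which rose by 3.14 ± 0.32. On the authors' RPKM table its value was -0.06 (limma, adjusted p = 0.55). It went from 0.847 to 2.16 CPM (median 1.38) to 2.53 to 29.9 (median 9.40). Plcg2, a phospholipase C, rose by 0.75 ± 0.07, Plp2, a membrane protein, by 0.74 ± 0.06, and Ehd4, which shapes endocytic membranes, by 0.48 ± 0.06. Pkd2l2, of the polycystin family, fell by -1.0 ± 0.08, from 8.23 to 13.2 CPM (median 9.72) to 3.05 to 7.96 (median 4.97).

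Genes of mitochondrial energy production fell almost without exception, most of those of the respiratory chain by less than 0.5. No member of the lists for fatty acid oxidation, respiratory chain, TCA cycle or branched-chain amino acid breakdown rose. Of 32 genes of fatty acid uptake and oxidation, 30 fell, with a median of -0.51. Slc27a1, a fatty acid transporter, fell by -0.73 ± 0.10, Mlycd, malonyl-CoA decarboxylase, by -0.65 ± 0.10, Hadhb, a subunit of the trifunctional protein, by -0.57 ± 0.09, and Etfa, which passes electrons from the oxidation enzymes on, by -0.53 ± 0.08. Of 36 complex I subunits 30 fell (median -0.31), 27 of them as small consistent changes, and of 41 genes of complexes II to V 40 fell (median -0.31), 35 of them small. Ndufs1 of complex I was at 512 to 564 CPM (median 549) in sham and 305 to 509 (median 408) after TAC. These ranges did not overlap, and the effect was -0.44 ± 0.06. Ndufa9, Ndufv1 and Ndufs8 of complex I fell by -0.39 ± 0.07, -0.42 ± 0.08 and -0.38 ± 0.07, Uqcrfs1 of complex III by -0.34 ± 0.06, Sdha of complex II by -0.46 ± 0.08 and Atp5b of ATP synthase by -0.40 ± 0.07. These counts leaned on day 4: without it, 15 complex I genes and 16 genes of complexes II to V fell, and without the 4 libraries with Myl7 over 30 CPM, 25 of the latter did.

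Of 29 genes of the TCA cycle and pyruvate dehydrogenase 28 fell (median -0.37), among them citrate synthase Cs (-0.39 ± 0.07), Idh3g of isocitrate dehydrogenase (-0.41 ± 0.07) and Pdp2, the phosphatase that activates pyruvate dehydrogenase (-0.79 ± 0.13). Of 20 genes of branched-chain amino acid breakdown 18 fell (median -0.44), among them Dbt (-0.56 ± 0.07) and Bckdhb (-0.60 ± 0.09), both subunits of the branched-chain ketoacid dehydrogenase. Peroxisomal genes fell in 19 of 29 cases (median -0.21), led by Ech1 (-0.77 ± 0.12), an isomerase of fatty acid breakdown, Phyh (-0.45 ± 0.07), which acts on branched fatty acids, the transporter Abcd3 (-0.41 ± 0.07) and the import receptor Pex7 (-0.37 ± 0.07).

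The machinery that builds mitochondria fell less. Of 76 mitochondrial ribosomal proteins 40 fell (52.6%) and 1 rose (1.32%), against 21.4% and 24.4% of all genes. The median was -0.19. Mrpl14, Mrps35, Mrpl39 and Mrpl22 fell by -0.49 ± 0.09, -0.39 ± 0.09, -0.35 ± 0.07 and -0.27 ± 0.06. The member that rose, Mrpl52 (0.12 ± 0.05), lost its call in 26 of 40 settings. Of 34 genes of import and proteolysis 13 fell (median -0.09), 38.2% against 21.4% of all genes. Among them were the proteases Clpx (-0.45 ± 0.07) and Clpp (-0.37 ± 0.08), the processing peptidase Pmpca (-0.22 ± 0.05) and the chaperone Hspa9 (-0.23 ± 0.06). Without day 4, 17 ribosomal and 7 import genes fell, without day 7 the counts were 21 and 6, and without the 4 libraries with Myl7 over 30 CPM 25 and 7. Receptors and coactivators that control fuel genes fell in 16 of 21 cases (median -0.31; 10 without day 4): Esrrg, an estrogen-related receptor, by -0.37 ± 0.06, Rxra, the partner of PPARs, by -0.34 ± 0.06 and Gabpa, a factor for respiratory genes, by -0.27 ± 0.04.

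The binding element of estrogen-related receptors, TCAAGGTCA, was searched in the same RefSeq promoters. Of 131 genes of the mitochondrial fuel lists with a promoter, 2 held it (1.53%), compared with 0.466% of all genes. The promoter of Atp5g3, a subunit of ATP synthase, is shown because it holds the element, on the opposite strand and in capitals (chr2:73911330-73911418, minus strand).
Atp5g3: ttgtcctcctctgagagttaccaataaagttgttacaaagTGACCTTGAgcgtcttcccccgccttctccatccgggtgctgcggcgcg
Atp5g3 fell by -0.27 ± 0.09 (adjusted p = 0.014), a call lost without day 4.

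Glycolysis moved in both directions, with 4 of 22 genes higher (18.2%), 7 lower (31.8%) and a median of -0.06. Over all genes tested 24.4% rose and 21.4% fell. The isoforms Pfkp of phosphofructokinase (0.68 ± 0.08) and Hk1 of hexokinase (0.27 ± 0.04), the mutase Pgam1 (0.53 ± 0.08) and the lactate dehydrogenase Ldha (0.13 ± 0.04) rose. The Ldha call was lost without day 2, without day 4 and with the replicate number as a block. Pfkfb1, which makes the activator of phosphofructokinase, fell by -1.04 ± 0.19.

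Genes of the cytosolic ribosome rose slightly, with the highest median at day 2. Of 76 cytosolic ribosomal proteins 49 rose and none fell, with a median of 0.16. The medians were 0.34, 0.17, 0.09 and 0.05 at days 2, 4, 7 and 21, and without day 2 the number that rose was 24. At day 2 alone 33 of the 76 passed the test as higher, compared with 3.73% of all genes. Rpl3 stood highest, from 51.2 to 68.3 CPM (median 63.1) to 80.9 to 177 (median 111), an effect of 0.87 ± 0.10. Rpl39, Rpl12 and Rps4x rose by 0.42 ± 0.06, 0.33 ± 0.05 and 0.28 ± 0.05. Ribosomal protein genes have many pseudogenes, and reads may have been split among them. Of 50 genes of ribosome biogenesis 12 rose, 24% against 24.4% of all genes, and 4 fell, with a median of 0.09. The number that rose was 21 on library totals alone, 4 without day 2, 4 without day 4, 4 without the 4 libraries with Myl7 over 30 CPM and 20 without replicate 1 of TAC at day 2. Rrp12 (0.58 ± 0.10), Nhp2 (0.39 ± 0.10) and Polr1e (0.31 ± 0.07) rose. The largest subunit of RNA polymerase I, Polr1a, fell by -0.34 ± 0.05, as did Gnl2 (-0.20 ± 0.06), Dkc1 (-0.14 ± 0.05) and Polr1b (-0.14 ± 0.06). The calls of Dkc1 and Polr1b were lost in 6 and 29 of 40 settings.

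Translation factors rose at about the share of all genes and fell at a lower one, with paralogs on both sides. Of 44, 11 rose (6 without day 2) and 6 fell (3 without day 7), with a median of 0.001. These were 25% and 13.6%, against 24.4% and 21.4% of all genes. The helicase Eif4a1 rose by 0.44 ± 0.06, from 137 to 166 CPM (median 143) to 167 to 275 (median 197), while its paralog Eif4a2 fell by -0.29 ± 0.05, from 250 to 302 (median 273) to 189 to 249 (median 225). Likewise Eef1a1, the elongation factor of most cells, rose by 0.61 ± 0.09, and Eef1a2, its form in adult muscle, fell by -0.23 ± 0.07, a call lost without day 7 and without the 4 libraries with Myl7 over 30 CPM. Eif4ebp2, a repressor of cap-dependent translation, fell by -0.26 ± 0.05, Eif1 by -0.29 ± 0.06, Eif5b by -0.17 ± 0.06 and Eif3c by -0.10 ± 0.04, a call lost in 18 of 40 settings. Of 22 tRNA synthetases 5 rose, 22.7% against 24.4% of all genes, and none fell (median 0.02). The count was 10 on library totals alone, 2 without day 2, without day 4 or without the 4 libraries with Myl7 over 30 CPM, and 3 without any 1 of 8 single libraries. Among the 5 were Vars (0.19 ± 0.06), Rars (0.18 ± 0.05) and Nars (0.16 ± 0.04). Among 22 genes of serine synthesis and the ATF4 stress response 11 rose (50%) and 3 fell (13.6%), with a median of 0.21. Psat1 of serine synthesis (1.44 ± 0.23), Mthfd1l of folate metabolism (1.17 ± 0.18), the amino acid transporter Slc7a5 (1.09 ± 0.18) and Aldh18a1 of proline synthesis (0.62 ± 0.11) rose, and Cth (-0.83 ± 0.26), Slc7a1 (-0.30 ± 0.09) and Shmt2 (-0.16 ± 0.06) fell. The Shmt2 call was lost in 12 of 40 settings.

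Genes of the secretory pathway that passed the test were mostly higher. These were 49.1% of ER genes and 35.6% of vesicle transport genes, compared with 24.4% of all genes. Of 53 genes of translocation, folding and glycosylation in the ER 26 rose and 1 fell, with a median of 0.15 and daily medians of 0.30, 0.22, 0.03 and 0.06. P4hb, protein disulfide isomerase, was at 134 to 161 CPM (median 149) in sham and 160 to 292 (median 210) after TAC, without overlap within any day, and rose by 0.53 ± 0.06. Edem1, which directs misfolded proteins to degradation, rose by 0.64 ± 0.09 and Ddost, of the oligosaccharyltransferase, by 0.34 ± 0.06. Herpud1, a component of ER-associated degradation, fell by -0.42 ± 0.11. Of 45 genes of vesicle transport 16 rose and 2 fell, with a median of 0.07 (25 and 0 on library totals alone, 9 higher without day 4). The KDEL receptors Kdelr3 and Kdelr2, which return ER proteins from the Golgi, rose by 1.26 ± 0.21 and 0.55 ± 0.10, the cargo receptor Tmed3 by 0.44 ± 0.07 and the coat subunit Copg1 by 0.33 ± 0.06. The members that fell, Sar1b (-0.18 ± 0.07) and Golga2 (-0.11 ± 0.04), lost their calls in 11 and 24 of 40 settings.

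The ER stress element, CCAAT and CCACG with a spacer of any 9 bases between them, is bound by ATF6 with NF-Y. It was found on either strand in the promoters of 8 of 42 genes of the ER list (19.0%), compared with 0.137% of all genes: Calr, Canx, Creld2, Dnajc3, Hsp90b1, Hspa5, Pdia6 and Syvn1. The promoters of the pair with the largest average effect are shown, with the element in capitals.
Pdia6: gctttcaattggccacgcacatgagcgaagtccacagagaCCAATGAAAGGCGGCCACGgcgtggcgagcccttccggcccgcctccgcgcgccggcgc
Creld2: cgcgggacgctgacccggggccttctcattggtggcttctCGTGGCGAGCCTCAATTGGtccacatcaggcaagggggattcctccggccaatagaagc
Pdia6, a disulfide isomerase, carries it on its own strand (chr12:17266451-17266549, plus strand), and rose by 0.46 ± 0.08, with 0.87 and 0.78 at days 2 and 4 and 0.19 and 0.01 at days 7 and 21. Creld2, an ER protein with disulfide isomerase activity, carries it on the opposite strand (chr15:88819480-88819578, plus strand), and rose by 0.37 ± 0.09, with 0.94 at day 2 and 0.06 at day 7. Its call was lost without day 2. The chaperone Calr rose by 0.29 ± 0.06. Hspa5, the chief ER chaperone, had 0.13 ± 0.05 (adjusted p = 0.043), with 0.52 at day 2 and -0.16 at day 7. Its value without day 2 was -0.003, and its call was lost in 23 of 40 settings. Hsp90b1 had 0.18 ± 0.06 and lost its call in 9 of 40. Canx, Dnajc3 and Syvn1 did not pass the test, with -0.07, 0.09 and -0.002. The 8 genes with the element thus had effects from -0.07 to 0.46.

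Protein breakdown was uneven. Of 49 lysosomal and V-ATPase genes 25 rose and 5 fell (2 without day 7, 3 without replicate 1 of sham at day 4), with a median of 0.16. These were 51% and 10.2%, against 24.4% and 21.4% of all genes. Grn, progranulin, was at 55.6 to 64.8 CPM (median 59.7) in sham and 68.2 to 136 (median 85.6) after TAC, with no overlap between the ranges, and rose by 0.56 ± 0.05. The proteases Ctsz and Lgmn rose by 0.87 ± 0.10 and 0.47 ± 0.06 and the membrane protein Cd63 by 0.65 ± 0.09. Macrophages are rich in these genes, and the summed macrophage markers given above moved the same way. The 5 that fell were the cholesterol exporter Npc1 (-0.34 ± 0.06), the glucosidase Gaa (-0.28 ± 0.09), prosaposin Psap (-0.22 ± 0.06), Scarb2 (-0.12 ± 0.03) and the peptidase Tpp1 (-0.10 ± 0.04), the last lost in 24 of 40 settings. Of 37 genes of autophagy and muscle ubiquitin ligases 20 fell and 1 rose, with a median of -0.15 (10 lower without day 4, 12 without day 7, 13 without the 4 libraries with Myl7 over 30 CPM, 12 on library totals alone). Pink1, the kinase that marks damaged mitochondria, fell by -0.60 ± 0.10, Atg10 by -0.45 ± 0.07, Atg9a by -0.25 ± 0.04 and Rb1cc1, of the kinase complex that starts autophagy, by -0.21 ± 0.04. Becn1 rose by 0.11 ± 0.04, a call lost in 8 of 40 settings.

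Proteasome genes showed little, with 6 of 43 higher (2 without day 2, 3 without replicate 3 of TAC at day 4), 2 lower and a median of -0.03 that turned to 0.03 on library totals alone. The calls were 14% and 4.65% of the list, against 24.4% and 21.4% of all genes. Psmd14 (0.24 ± 0.06) and Psmc4 (0.20 ± 0.05) of the regulatory particle rose, and the activators Psme1 (-0.32 ± 0.09) and Psme4 (-0.23 ± 0.06) fell. Of 34 chaperonin and heat shock genes 13 rose (38.2%) and 2 fell (5.88%), against 24.4% and 21.4% of all genes. Hspa1l, Hspb1 and Hspb7 rose by 0.71 ± 0.12, 0.62 ± 0.12 and 0.37 ± 0.07. The myosin chaperone Unc45b and the co-chaperone Dnaja2 fell by -0.29 ± 0.06 and -0.22 ± 0.05. Nuclear pore and import genes rose in 11 of 40 cases (27.5%, compared with 24.4% of all genes) and fell in 1 (19 and 0 on library totals alone), among them the importins Ipo4 (0.28 ± 0.06) and Ipo9 (0.23 ± 0.05). Nup88 fell by -0.13 ± 0.04. Of 64 spliceosome genes 7 rose (10.9%) and 4 fell (6.25%), both under the shares of all genes (24.4% and 21.4%). The number that rose was 18 on library totals alone, 3 without day 2, 4 without day 4, and 12, 4 and 11 without replicate 1 of TAC at day 2, replicate 3 of TAC at day 2 and replicate 1 of TAC at day 7. Ptbp1, a splicing repressor, rose by 0.51 ± 0.08 and Srsf9 by 0.40 ± 0.09. Those that fell were core components: Prpf4 (-0.22 ± 0.05), Prpf19 (-0.19 ± 0.07), Snrnp200 (-0.14 ± 0.03) and Prpf8 (-0.12 ± 0.03).

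**Figure D5:**
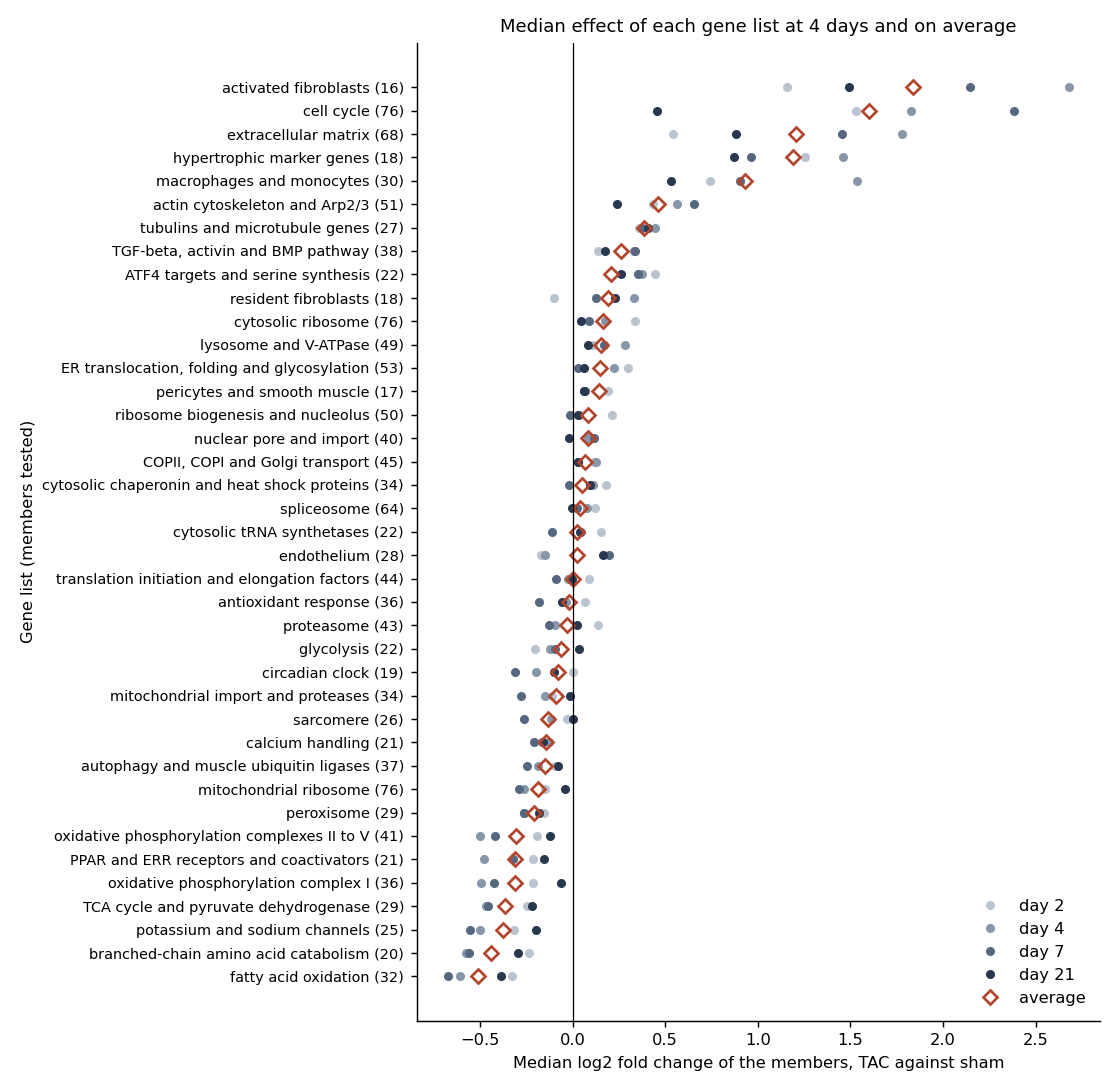
Median log2 fold change of each of the 39 gene lists with at least 15 tested members (number in brackets), at each day (circles, light to dark from day 2 to day 21) and on average (red diamonds). Fibroblast, cell cycle and matrix lists stand highest with a wide spread over days, and fatty acid oxidation and branched-chain amino acid breakdown stand lowest, with all 4 daily medians under 0.

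The cytoskeleton rose as a group. Of 51 genes of actin and its regulators 43 rose and none fell, with a median of 0.46, and of 27 tubulin and microtubule genes 20 rose and none fell, with a median of 0.39 that was 0.36 to 0.45 at every day. Capg, a gelsolin-like capping protein, rose by 1.33 ± 0.14, Vim, vimentin, by 1.13 ± 0.13, Tmsb10, a thymosin, by 1.02 ± 0.11 and Arpc1b of the Arp2/3 complex by 0.83 ± 0.10. The beta tubulins Tubb2a, Tubb6 and Tubb5 rose by 1.24 ± 0.16, 1.20 ± 0.16 and 0.93 ± 0.12. Stmn1, a microtubule destabiliser, rose by 1.16 ± 0.12. Vim, Capg and Tmsb10 are also abundant in fibroblasts and macrophages, whose markers rose.

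On the average, contractile, calcium and channel genes leaned lower. Of 26 sarcomere genes 10 fell (38.5%) and 3 rose (11.5%), against 21.4% and 24.4% of all genes. The number that fell was 5 without day 4 and 6 without the 4 libraries with Myl7 over 30 CPM. The daily sarcomere medians were -0.03, -0.12, -0.26 and 0 at days 2, 4, 7 and 21. No fall in this list was called at day 2 or day 21. Cmya5, a large protein of the muscle's costameres, fell by -0.56 ± 0.09 and Nebl, nebulette, by -0.29 ± 0.06. The Z-disc and thin filament proteins Pdlim5 and Nrap rose by 0.51 ± 0.06 and 0.35 ± 0.06, and Myom1 by 0.17 ± 0.06, a call lost in 5 of 40 settings. Of 21 calcium genes 10 fell (47.6%) and 4 rose (19%). Atp2a2, the SERCA2 pump that refills the calcium store, was at 10950 to 13540 CPM (median 12120) in sham and 5985 to 11950 (median 8600) after TAC. The ranges overlapped, and it fell by -0.48 ± 0.09. Its inhibitor Pln fell by -0.50 ± 0.07, the release channel Ryr2 by -0.33 ± 0.05 and the kinase Camk2a by -0.48 ± 0.08. Casq1 rose by 1.04 ± 0.22, from 2.78 at day 2 to -0.33 at day 21, a call lost without day 2. The sodium-calcium exchanger Slc8a1 (0.18 ± 0.06) and Srl (0.17 ± 0.06) also rose. The Srl call was lost in 14 of 40 settings. Of 25 potassium and sodium channel genes 19 fell (76%) and 1 rose (4%), with a median of -0.38. Beside Kcnv2, the inward rectifiers Kcnj2 and Kcnj5 fell by -0.56 ± 0.08 and -0.51 ± 0.07.

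Clock and antioxidant genes moved both ways. Of 19 clock genes 8 fell and 2 rose. The number that fell was 5 on library totals alone, 4 without day 4 or without day 7 or without the 4 libraries with Myl7 over 30 CPM, and 5 without replicate 3 of sham at day 2, of TAC at day 2 or of TAC at day 7. Nr1d1 and Nr1d2, the repressors REV-ERB alpha and beta, fell by -0.36 ± 0.06 and -0.31 ± 0.05, and the output factor Hlf by -0.61 ± 0.12. Bhlhe40 and Bhlhe41 rose by 0.29 ± 0.06 and 0.24 ± 0.07. The labels do not give the time of day of collection. Of 36 antioxidant genes 10 rose (27.8%) and 13 fell (36.1%), against 24.4% and 21.4% of all genes. The median of -0.02 was 0.04 on library totals alone. Metallothionein Mt2 rose by 1.21 ± 0.12 and was called at every day, while Mt1 rose by 0.20 ± 0.07. Heme oxygenase Hmox1 rose by 1.37 ± 0.27, with 2.69 at day 2 and 0.24 at day 21. The peroxidases Gpx7, Gpx3, Gpx8 and Prdx4 rose by 1.20 ± 0.31, 0.63 ± 0.13, 0.42 ± 0.08 and 0.44 ± 0.07, extracellular superoxide dismutase Sod3 by 0.45 ± 0.09 and thioredoxin Txn1 by 0.29 ± 0.06. Gstk1, a glutathione transferase of mitochondria and peroxisomes, fell by -0.78 ± 0.11.

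Vascular markers moved both ways, and red cell genes fell. Endothelial markers rose in 5 of 28 cases and fell in 8 (12 and 3 on library totals alone). These were 17.9% and 28.6%, against 24.4% and 21.4% of all genes. Without day 7 none rose, without day 21 there was 1, without day 2 there were 8, and without day 4 there were 3 that fell. The median was 0.02, made of -0.17 and -0.15 at days 2 and 4 and 0.19 and 0.16 at days 7 and 21. Their summed level was 3160 to 3541 CPM in sham and 2640 to 4027 after TAC. Pecam1 (0.15 ± 0.04), S1pr1 (0.19 ± 0.06), Erg (0.17 ± 0.06), Sox18 (0.17 ± 0.06) and Aplnr (0.30 ± 0.09) rose. The Sox18 call was lost in 9 of 40 settings. The water channel Aqp1 (-0.41 ± 0.09), Rgcc (-0.34 ± 0.10) and Cd300lg (-0.29 ± 0.07) were among those that fell. Pericyte and smooth muscle markers rose in 7 of 17 cases (41.2%) and fell in 3 (17.6%). Cspg4, the NG2 proteoglycan, rose by 0.54 ± 0.06 and Cnn1, calponin, by 1.54 ± 0.30. Abcc9, a subunit of ATP-sensitive potassium channels that muscle also expresses, fell by -0.61 ± 0.10, its partner Kcnj8 by -0.24 ± 0.06 and Smtn by -0.18 ± 0.05. All 4 tested red cell genes fell, among them Alas2 (-0.47 ± 0.12). Their summed level was only 11 to 21.5 CPM in sham and 5.95 to 14.5 after TAC, and Slc4a1 (-1.12 ± 0.38) lost its call in 5 of 40 settings, among them leaving out replicate 1 of sham at day 2. Of 10 tested atrial genes 2 rose (Nppa and Pam, 0.38) and 2 fell (Stard10 and Tbx5, -0.59), 20% each way and near the shares of all genes. Of 8 nerve and Schwann cell genes 1 rose, the tubulin Tubb3 (2.27), and 2 fell, Cdh19 (-0.43) and Dbh (-0.68). Of 4 skeletal muscle genes Tnnt3 rose (1.47) and the creatine kinase Ckm fell (-0.48). Of 10 adipocyte markers 3 were tested and none passed the average test, nor did the 1 epicardial gene tested. The summed adipocyte markers were uneven, at 276 to 1721 CPM in sham (median 349) and 219 to 453 after TAC (median 298). At day 4 the median effect of the 3 was -3.41, and 1 was called lower. The part of fat tissue in the results was not tested.

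Few genes passed the test of a difference among days. With 3 libraries per group, a gene that did not pass may still change over days. The effects differed among the 4 days in 51 genes (0.369% of those tested), of which 36 also passed the average test. Of the 36, 26 had the opposite sign at day 2, and in 28 the effect was largest in size at day 7. Trp53i11 went from -0.69 at day 2 to 0.24, 0.90 and 0.51 at days 4, 7 and 21. Its average of 0.24 ± 0.06 is near the value of day 4 alone. Its adjusted p among days was 0.000304. Mest, an imprinted gene of fetal growth, had -0.12, 1.51, 2.66 and 0.56 and an average of 1.15 ± 0.13. Its sham libraries were at 7.23 to 15.1 CPM and its TAC libraries at 7.34 to 65.6. Ets1, a transcription factor of vessels and immune cells, averaged 0.18 ± 0.04, of which 0.70 at day 7. Plxnd1, a semaphorin receptor of vessels, averaged 0.12 ± 0.05, with -0.28 at day 2 and 0.71 at day 7. Its value without day 7 was -0.07, and its call was lost in 13 of 40 settings.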

How the data were processed

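Left ventricles were frozen in liquid nitrogen, and total RNA went through a NuGEN Ovation preparation onto an Illumina NextSeq500, per the labels' protocols. The submitters' processing notes name TopHat, DESeq and the build hg19, without versions or settings. hg19 is a human build, while the table holds mouse gene symbols. No source used here names the mouse build or the program that counted reads. The authors deposited raw read counts per gene symbol, which carry the results, and RPKM values, which served only as an alternative, as log2(RPKM + 0.5).

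The filter filterByExpr of edgeR 4.0.16 (R 4.3.3), given the 8 groups, left 13816 genes with 99.96% of the counts. Libraries were scaled by TMM and fitted by a quasi-likelihood model with 8 group means and 16 residual degrees of freedom. The average is the mean of the 4 within-day differences, with weight 0.25 each. Tests were two-sided, p-values were adjusted over all genes tested, and the SE is the log2 fold change divided by the square root of F. The biological coefficient of variation was 0.146. Counts of replicates differed by more than sampling noise (chi-square over degrees of freedom 3.56 to 60.6), so none looks like a library deposited again. Whether libraries share an animal is not shown by this. A set of simulated counts with known changes was used to test the scripts.

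The gene lists and the rule for named genes were chosen with earlier results of these data known, so the lists are described by counts and medians, without a test. Named were genes with an average of at least 3 log2 CPM: the 10 largest rises and falls without overlap at any day, the 12 small rises and falls and the 6 rises and falls called at no single day with the lowest p, and the 4 with the lowest p among days. A fixed panel, up to 4 members of each list with the lowest p and members called against its direction completed the rule. The other genes called at every day and those with a promoter motif were named after their values were seen. Some genes the rule names are not reported here. Same-numbered libraries of TAC and sham within a day did not deviate together, so they were not treated as pairs.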

Additional observations from a re-analysis of the deposited data

Results flagged for a closer look

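The effect of TAC differed among the 4 days in 51 genes by the F test of the same edgeR model, with p-values adjusted over all genes. Among the genes named above these were Trp53i11 (adjusted p = 0.000304), Ets1 (0.000901), Mest (0.0039), Plxnd1 (0.0039), Lcn2 (0.0118), Cd34 (0.026), Aplnr (0.0352) and Meis2 (0.0442). Lcn2, an iron-binding protein of inflammation, had effects of 2.02, 2.45, -0.41 and 0.17 at days 2, 4, 7 and 21. Cd34 had 0.09, 0.59, 1.02 and 0.52, and Aplnr, the apelin receptor of endothelium, had -0.44, 0.11, 1.08 and 0.47. For these genes the average is taken over daily effects that differed. Groups of 3 libraries are too small for the outlier check that was planned for larger groups.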

How the results depend on the processing

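The counts of the average were 3392 higher and 2931 lower with RLE scaling, 3397 and 2977 with DESeq2, 3274 and 3076 with limma-voom, and 3168 and 2764 with RPKM and limma. With the replicate block within days they were 3111 and 2846; the 12 same-numbered pairs had correlations of -0.151 to 0.141, 1 of them over 0.1, so that the numbers give no pairing. Without day 4 there were 2412 higher genes and 1924 lower, against 2952 lower in the main analysis. Fewer libraries were used there. Without the 4 libraries with Myl7 over 30 CPM there were 2583 and 2051. Leaving out each library in turn gave 3096 to 3635 higher and 2621 to 3177 lower genes, 1112 to 1360 small rises, 1759 to 2152 small falls and 1471 to 2364 genes called at no single day. The counts of small changes follow their limit: with 0.3 in place of 0.5 there were 654 rises and 1270 falls, and with 1 there were 2048 rises and 2446 falls.

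Of the 286 genes checked, 69 lost their call in at least 1 of 40 settings. The report gives this number for genes that lost it in 5 or more. Signs turned in 4 cases, with calls lost: Hspa5 without day 2 (-0.0031), Plxnd1 without day 7 (-0.068), and on the RPKM table Myh6 (0.76) and Nmrk2 (-0.062). The cause was not tested. Depth was 10.7 to 17.6 M reads per library, and genes with low counts that did not enter the model are not described.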
